A study of Mus musculus with 32 samples.

Results

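In hippocampal neurons that lacked Mettl3 and had been depolarized with KCl, the RNA of the neurites was compared with the RNA of the soma. The comparison rests on 4 RNA-seq libraries from 2 cell culture inserts, of 16 RNA-seq libraries from 8 inserts and 32 libraries of RNA-seq and DART-seq in the whole series. Members were chosen by their labels: the Mettl3 KO neurite and soma libraries treated with KCl, replicates 1 and 2. A neurite library and a soma library that carry the same replicate number were treated as 1 insert. The inserts give pair 1 and pair 2.

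The study sequenced soma and neurite RNA from WT (C57BL/6) and Mettl3Flox/Flox neurons (genotype label Mettl3-/-), untreated (Ctrl) or treated with KCl. Hippocampi of newborn pups of single litters, both sexes pooled, were grown on porous membranes through which neurites extend, and neurites were scraped from below and somata from above. An AAV in which the neuronal hSyn promoter drives Cre and dTomato was added at DIV 7 to cultures of both genotypes, so the WT neurons carried Cre as well. All cultures were silenced from DIV 14 with the sodium channel blocker TTX (1 µM) and the NMDA receptor blocker D-AP5 (50 µM), for 16 h, and the depolarized ones then received 55 mM KCl for 2 h, at 15 days in culture. The 2 inserts of a group came from distinct litters. The groups used here are the KCl-treated Mettl3 KO soma and neurites and, for differences, the untreated Mettl3 KO and the KCl-treated WT soma and neurites, with 2 libraries each. The hSyn promoter is neuronal, so other cell types in the cultures may have kept Mettl3, which was not measured by cell type. The soma fraction can hold neurites that did not cross the membrane.

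Mettl3 is the catalytic subunit of the complex that writes m6A, a methyl mark on adenosines of RNA that is read by YTH-domain proteins. Neurons send chosen mRNAs into dendrites and axons, where they can be translated near synapses. Depolarization opens calcium channels and switches on immediate early genes such as Fos and Npas4 in the nucleus.

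Total counts were 59866795 in soma and 56659328 in neurites of insert 1, and 45457348 and 33789183 in insert 2. The neurite library of insert 2 had the lowest total of the 16 RNA-seq libraries, which ranged from 33789183 to 71394235. Levels are given as CPM, the count of a gene scaled by the library total and TMM, and changes as log2 ratios of neurite to soma. PCR reads without molecular identifiers are not independent molecules. Mettl3 read 8.93 and 6.11 CPM in the KCl-treated KO somata and 7.90 and 3.88 CPM in their neurites, on a scale shared by all 16 libraries. The WT somata read 13.2 to 17.3 CPM and the WT neurites 8.90 to 12.5 CPM, so each of the 4 KO libraries was below every WT library of its compartment. A count over the whole gene also covers exons outside the floxed part.

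Insert 1 stood apart in both of its libraries. Markers of neurons, 10 genes such as Snap25 and Syn1, summed to 1192 CPM in its soma and 626.5 CPM in its neurites. Insert 2 read 3762 and 4167 CPM, within the 3226 to 4520 CPM of the 12 RNA-seq libraries of the other groups. Neuronal markers were therefore present in every library, and were lowest in those of insert 1.

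The glial and connective tissue markers went the other way. The 11 astrocyte markers summed to 9592 CPM in the soma and 18570 CPM in neurites of insert 1, against 2546 and 2736 CPM in insert 2 and 1201 to 7152 CPM in the 12 libraries of the other groups. The 7 markers of the oligodendrocyte lineage summed to 3584 and 7198 CPM in insert 1, 55.26 and 66.67 CPM in insert 2 and 37.94 to 183.1 CPM elsewhere. Both libraries of insert 1 exceeded every other library in both lists.

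The 7 microglial markers summed to 392 and 284.2 CPM in insert 1, 24.29 and 55.99 CPM in insert 2 and 12.3 to 52.62 CPM elsewhere. The 12 fibroblast and vascular markers summed to 145.1 and 772.4 CPM in insert 1, 25.18 and 28.35 CPM in insert 2 and 15.6 to 95.02 CPM elsewhere. Cell cycle genes, a list of 6 chosen after their values were seen (Mki67, Top2a, Cdk1, Ccnb1, Aurkb and Birc5), summed to 297.4 and 359.2 CPM in insert 1, 6.365 and 6.896 CPM in insert 2 and 4.593 to 7.848 CPM elsewhere. No marker of the 5 lists was at 0 in all 4 libraries. In bulk libraries fewer cells of a type and less RNA per cell cannot be told apart, and the part of these cell types in the results below was not tested. For this reason each value is given for both pairs, and the value of pair 2 is the one without insert 1.

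**Figure D1:**
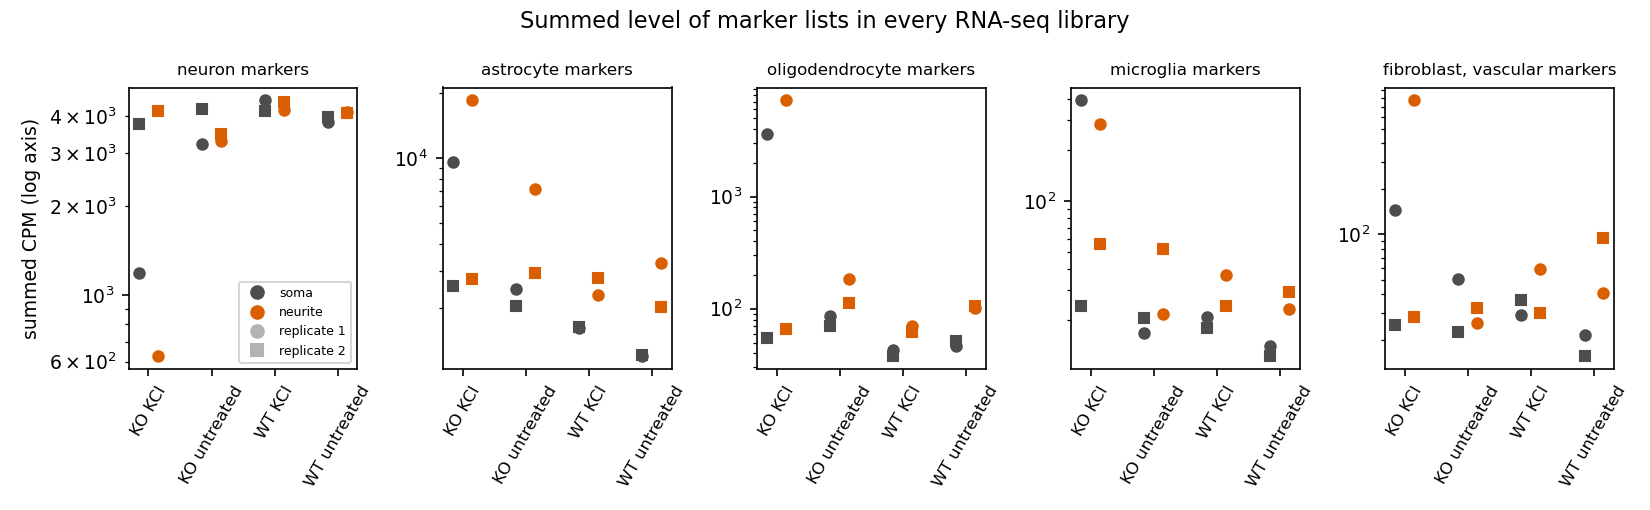
Summed CPM (log axis) of the marker lists of 5 cell types in the 16 RNA-seq libraries, by genotype and treatment, with soma in grey, neurites in orange, replicate 1 as circles and replicate 2 as squares. The 2 libraries of insert 1 are the lowest for neuron markers (1192 and 626.5 CPM) and the highest for astrocyte, oligodendrocyte, microglia and fibroblast or vascular markers.

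The first question was which RNAs differed between neurites and soma in depolarized Mettl3 KO neurons. No gene passed. The edgeR quasi-likelihood test with 1 term per insert called 0 of 23152 genes higher and 0 lower (0% each) with a change of 1.5-fold or more and an adjusted p (Benjamini-Hochberg) no greater than 0.05, and the smallest adjusted p was 0.647. With the same fold and an unadjusted p no greater than 0.05, 634 genes were higher (2.74%) and 761 lower (3.29%). DESeq2 on the same 4 libraries called 5 higher (0.0216%) and 16 lower (0.0691%) at its adjusted p. With 4 libraries and 1 term per insert, 1 degree of freedom was left for the spread, which was shared over genes. With insert 1 left out the unadjusted counts were 551 higher and 600 lower, and with insert 2 left out 280 and 1104, in a fit to 14 libraries that assumed the lone insert to vary like the other groups, and 0 genes passed at an adjusted p either way.

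The 2 pairs shared little. Across the 23152 genes the neurite to soma ratios of pair 1 and pair 2 correlated at 0.11, and at 0.0838 over the 15380 genes whose mean count reached 100. Genes are not independent replicates. In the other groups, on the scale of the 16 libraries and over 15169 genes, the 2 pairs correlated at 0.37 (untreated Mettl3 KO), 0.609 (KCl-treated WT) and 0.705 (untreated WT), against 0.132 here. The difference between inserts 1 and 2 was itself shared by soma and neurites, with a correlation of 0.81. Its SD over genes was 1.20 on the log2 scale in soma and 1.64 in neurites, above the SD of the neurite to soma ratios within a pair (0.681 and 0.770).

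In pair 1, 2106 genes (9.1%) were at least 1.5-fold higher and 4605 (19.9%) at least 1.5-fold lower in neurites. In pair 2 these were 3421 (14.8%) and 3539 (15.3%). At least 1.5-fold higher in both pairs were 546 genes (2.36%), and lower in both 1117 (4.82%). The opposite direction in the 2 pairs, at least 1.5-fold each way, was seen for 460 genes higher in pair 1 and lower in pair 2 (1.99%) and 577 genes lower in pair 1 and higher in pair 2 (2.49%). At a mean count of at least 100 on the same scale, 301 genes were higher and 238 lower in both pairs, and with TMM taken on those genes alone 200 and 285, so which side held more genes depended on the scaling there.

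**Figure D2:**
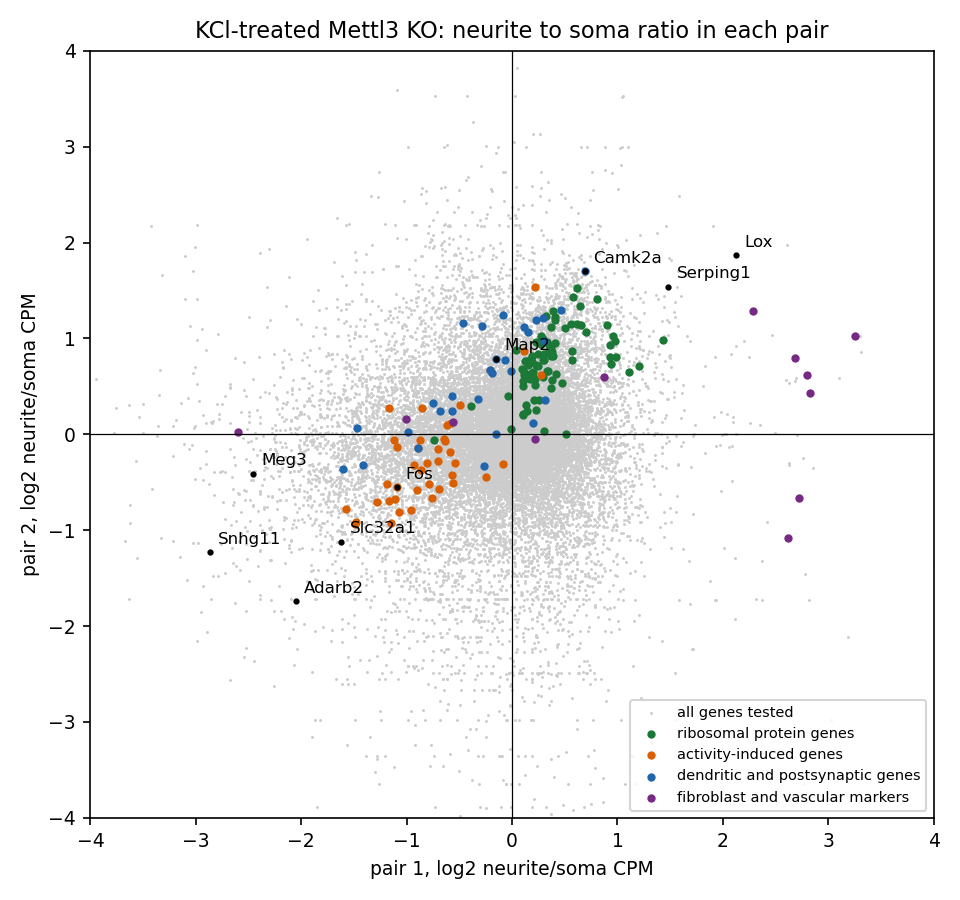
Neurite to soma log2 ratio of each gene in pair 1 (x axis) against pair 2 (y axis) for 23152 genes, with axes ending at 4 either way, lines at 0, 4 gene lists in colour and 9 genes named. The cloud shows little slope (r = 0.11 across genes), and genes lie in all 4 corners: 546 higher in both pairs, 1117 lower in both, 460 and 577 in the opposite corners.

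Among protein-coding and long noncoding genes whose mean count reached 100, Lox, Serping1 and Bgn had the smallest p of those higher in neurites, and were named after their values were seen. Lox, which codes for the enzyme that cross-links collagen and elastin (ENSMUSG00000024529, GRCm38 chr18:52516067-52529867), read 14.2 CPM in the soma library of insert 1 and 61.5 CPM in its neurites, and 1.44 and 5.29 CPM in insert 2. Both neurite libraries exceeded their own soma, but the neurites of insert 2 were below the soma of insert 1, so the groups overlap. Its log2 ratio was 2.12 in pair 1 and 1.87 in pair 2, and the fit gave 2.01 ± 0.26 (SE, n = 2 pairs, edgeR adjusted p = 0.647, DESeq2 adjusted p = 0.000115).

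Serping1, the inhibitor of complement C1 (chr2:84765387-84775444), read 63.2 and 176 CPM in the soma and neurites of insert 1 and 8.10 and 23.5 CPM in insert 2. Its ratios were nearly equal in the 2 pairs, 1.48 and 1.54, with a fit of 1.51 ± 0.21 (edgeR adjusted p = 0.675, DESeq2 adjusted p = 0.00395). Bgn, the small matrix proteoglycan biglycan (chrX:73483602-73495933), had ratios of 2.29 and 1.29 and a fit of 1.83 ± 0.33 (edgeR adjusted p = 0.69, DESeq2 adjusted p = 0.00842). Its levels were 8.46 and 41.3 CPM in the soma and neurites of insert 1 and 1.85 and 4.56 CPM in insert 2. Decorin (Dcn), a related proteoglycan, read 12.8 and 122 CPM in insert 1 but only 0.71 and 1.46 CPM in insert 2, with ratios of 3.25 and 1.03. DESeq2 called these 4 genes and the processed pseudogene Gm14303, which read 26.5 and 71.1 CPM in insert 1 and 28.3 and 64.4 CPM in insert 2 (1.43 and 1.18, DESeq2 adjusted p = 0.0362). Dcn, Bgn and Lox therefore had low levels in insert 2. The 12 fibroblast and vascular markers, which include Bgn and Dcn themselves, summed to 145.1 (soma) and 772.4 CPM (neurites) in insert 1. In insert 2 they summed to 25.18 and 28.35 CPM, where Col1a1 alone made 9.18 and 5.81 CPM. Of the 12 markers 5, Bgn and Dcn among them, were at least 1.5-fold higher in both pairs, beside 2.36% of all genes.

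Other genes at least 1.5-fold higher in both pairs included the matrix genes Mfap4 (2.46 and 1.03) and Srpx2 (3.30 and 1.03) and the pentraxin Ptx3 (1.10 and 1.66). Gng4, a G protein gamma subunit, was of another kind, with similar levels in both inserts. It read 43.6 CPM in the soma and 91.4 CPM in neurites of insert 1, and 34.7 and 68.2 CPM in insert 2. Both Gng4 neurite libraries lay above both soma libraries, and the ratios were 1.07 and 0.98.

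Of the 16 genes that DESeq2 called lower in neurites, 6 are known from GABAergic interneurons and were also named after their values were seen. Adarb2, an ADAR-family gene found in interneurons of caudal origin (chr13:8202866-8768747), read 14.5 CPM in the soma and 3.51 CPM in neurites of insert 1, and 38.2 and 11.4 CPM in insert 2. Each neurite library was below both soma libraries. The ratios were −2.05 and −1.74 and the fit −1.89 ± 0.26 (edgeR adjusted p = 0.675, DESeq2 adjusted p = 0.000119).

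Slc32a1, the vesicular GABA transporter (chr2:158610767-158615748), read 17.1 and 5.56 CPM in insert 1 and 113 and 52.0 CPM in insert 2, with ratios of −1.62 and −1.12. Its neurites in insert 2 exceeded the soma of insert 1, so only the comparison within inserts separates the compartments. The serotonin receptor Htr3a (−1.64 and −1.22), the potassium channel Kcnc2 (−1.58 and −1.22) and the homeobox genes Dlx6 (−1.87 and −1.51) and Dlx5 (−1.66 and −1.12) were also lower in both pairs. Dlx6 and Dlx5 belong to the family that specifies forebrain interneurons. DESeq2 called these 6 genes lower, with adjusted p from 0.000119 (Adarb2) to 0.0456 (Dlx6). Dlx6os1, which DESeq2 also called (−2.59 and −1.11), overlaps the Dlx6 locus on the other strand, and the sources used here state no strand setting for the counting, so its reads and those of Dlx6 cannot be told apart. Snhg11, described with the long noncoding RNAs, was another of the 16, and the other 8 were Calca, Zfp941, Ankrd33b, Cacng3, the unclassified 4930589O11Rik and the processed pseudogenes Gm12895, Gm12896 and Rps12-ps7.

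A list of 12 GABAergic genes was put together after these values were seen, so its counts describe the choice. Of its members 9 were at least 1.5-fold lower in both pairs, beside 4.82% of all genes, and 11 were below 0 in both, beside 27.6%. The medians were −1.59 in pair 1 and −0.93 in pair 2. Gad1, which makes GABA, read 135 and 69.0 CPM in the soma and neurites of insert 1 and 634 and 344 CPM in insert 2, and Gad2 read 30.0 and 10.2 CPM and 165 and 91.7 CPM. On the scale of 16 libraries the median of this list was −1.53 and −0.97 here, −0.66 and −1.20 in untreated Mettl3 KO and −0.25 and −0.61 in KCl-treated WT. It was below 0 in all 6 inserts.

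The 8 glutamatergic genes chosen at the same time had opposite medians in the 2 pairs, −0.89 in pair 1 and 0.72 in pair 2. Slc17a7, the vesicular glutamate transporter of excitatory neurons, read 43.0 and 20.6 CPM in insert 1 and 108 and 171 CPM in insert 2. Neurod6, a transcription factor of excitatory neurons, went from 11.4 to 7.21 CPM in insert 1 and from 31.5 to 136 CPM in insert 2. These genes followed the GABAergic genes in pair 1 and parted from them in pair 2.

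**Figure D3:**
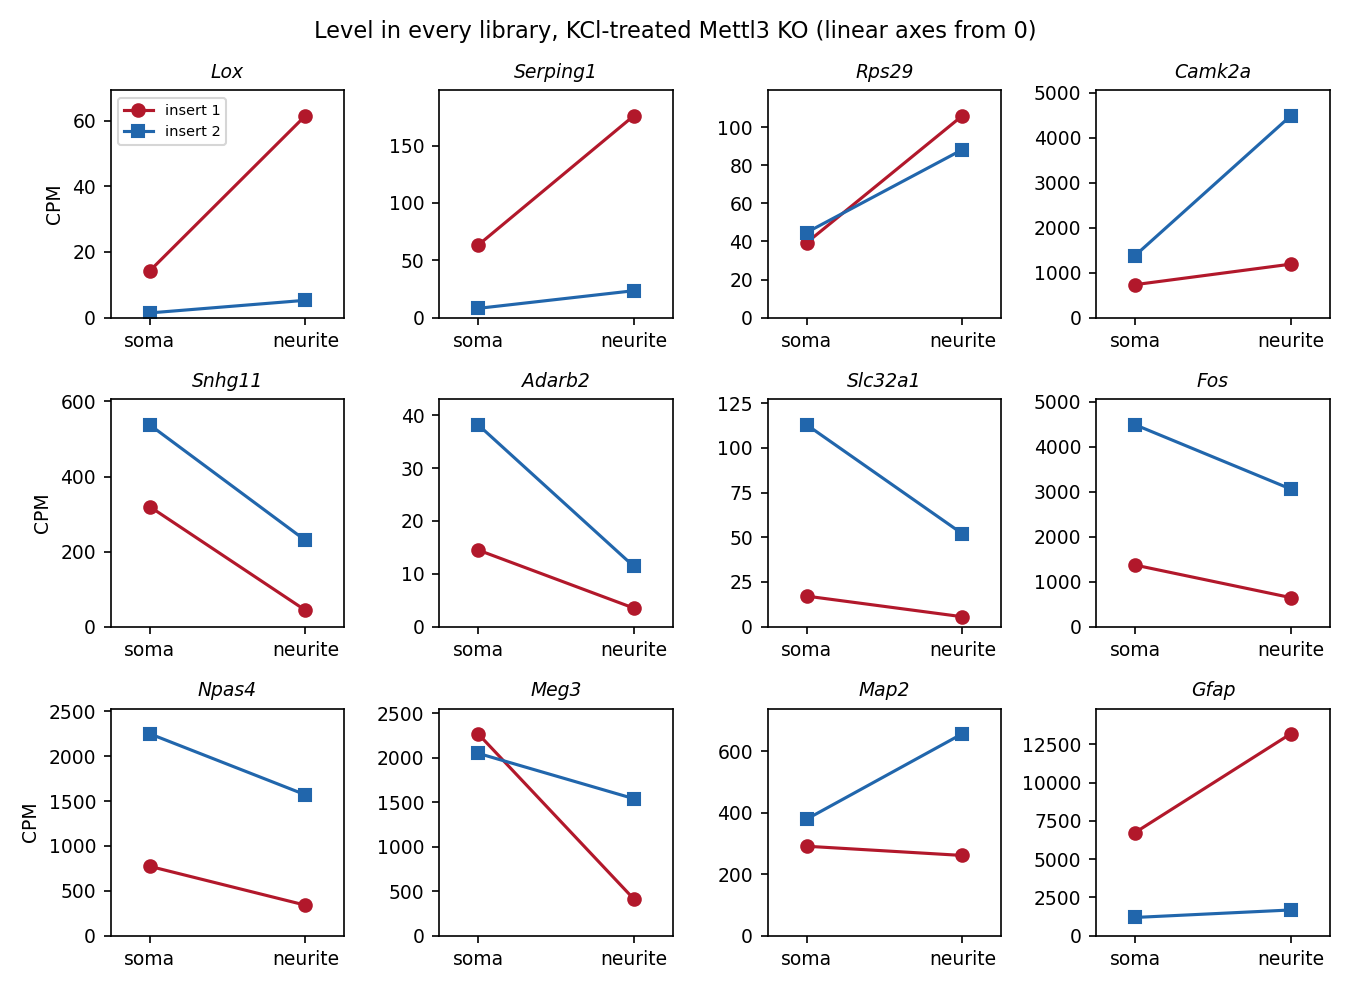
CPM (linear axes from 0) of 12 genes in soma and neurites of the 2 KCl-treated Mettl3 KO inserts, with a line joining the libraries of 1 insert. Lox and Serping1 slope up and Adarb2, Slc32a1 and Snhg11 slope down in both inserts, and each of these 5 genes starts from different levels in the 2 inserts.

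Of the 41 genes induced by activity, 32 were below 0 in both pairs, against 27.6% of all genes, and 3 were above 0 in both. At least 1.5-fold lower in both were 10, beside 4.82% of all genes, and none was 1.5-fold higher in both. At an unadjusted p in edgeR 16 were lower, beside 3.29% of all genes. The list's median was −0.81 in pair 1 and −0.31 in pair 2, beside medians of 0.003 and −0.011 over all genes. None passed at an adjusted p in DESeq2, or in edgeR with the filter on low counts. Without that filter edgeR called members such as Fos and Npas4 lower.

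Fos, the immediate early transcription factor (ENSMUSG00000021250, chr12:85473890-85477273), read 1370 CPM in the soma and 646 CPM in neurites of insert 1, and 4490 and 3060 CPM in insert 2. Within each insert the neurites were below the soma, although the neurites of insert 2 were above the soma of insert 1. The ratios were −1.09 and −0.55 and the fit −0.82 ± 0.30 (edgeR unadjusted p = 0.0259, adjusted p = 0.734). Npas4, a transcription factor induced by calcium entry, read 773 and 340 CPM in insert 1 and 2250 and 1570 CPM in insert 2, with ratios of −1.19 and −0.52. Junb read 1330 and 696 CPM, and 4720 and 3780 CPM (−0.93 and −0.32).

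The 10 members at least 1.5-fold lower in both pairs were Fosb, Egr1, Egr4, Nr4a1 and Atf3, which code for transcription factors, Csrnp1, a nuclear regulator of transcription, Gadd45b, a stress-induced regulator of growth and demethylation, Dusp4, a phosphatase of MAP kinases, the kinase Sik1, and Vgf, a secreted neuropeptide precursor. Fosb read 138 and 49.6 CPM in insert 1 and 447 and 238 CPM in insert 2 (−1.48 and −0.91). Egr4 read 114 and 46.9 CPM, and 786 and 479 CPM (−1.28 and −0.71). Vgf read 162 and 54.2 CPM, and 496 and 288 CPM (−1.58 and −0.78). For these 3 genes insert 2 read higher than insert 1 in both compartments, as did the sum of the neuronal markers.

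In pair 2, 9 of the 41 genes were above 0, and ratios near 0 were seen for nuclear factors such as Nr4a2 (−0.05) and Nr4a3 (−0.06) as well. Arc, a synaptic cytoskeletal protein, read 699 and 377 CPM in insert 1 and 3210 and 2910 CPM in insert 2 (−0.89 and −0.14). Bdnf, the neurotrophin, read 66.6 and 57.8 CPM, and 94.0 and 150 CPM, so that it was lower in the neurites of pair 1 (−0.21) and higher in those of pair 2 (0.67). Homer1, a postsynaptic scaffold with a short form induced by activity, which a gene count does not separate, read 83.5 and 30.0 CPM, and 84.7 and 89.1 CPM (−1.47 and 0.07).

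To show where these RNAs carry m6A in WT neurons, the DART-seq site with the highest editing is given. It is shown for the 4 with the highest editing among the activity genes 1.5-fold lower in both pairs. The sites were called in WT neurons, not in the Mettl3 KO neurons compared here. In DART-seq a deaminase fused to an m6A-binding domain turns cytidines next to m6A into uridines. The deposited editing is the authors' mean over libraries that the file does not name, and the methods state that sites were called in WT against Mettl3 KO. Each sequence is 21 bases of GRCm38.p6 on the strand of the transcript, with the edited C at base 11, and capitals mark the RAC motif (AAC or GAC) that holds it:
Dusp4: acattaaaAACaaacacaact
Csrnp1: cctcctgtGACtcctttgagc
Fosb: ttcactgaAACctgtcagtct
Nr4a1: ggtccagaAACaggacctact
The Dusp4 site lies in the 3′UTR (chr8:34818952-34818972, plus strand) with an authors' mean C-to-U of 14.2%. The Csrnp1 site lies in coding sequence (chr9:119972488-119972508, minus strand; 11.6%). The Fosb (chr7:19308022-19308042, minus strand; 10.3%) and Nr4a1 (chr15:101273503-101273523, plus strand; 8.94%) sites lie outside the exons of coding transcripts in GENCODE M21. Dusp4 itself read 63.1 and 28.4 CPM in insert 1 and 209 and 110 CPM in insert 2 (−1.15 and −0.92).

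The 29 genes of dendrites and the postsynaptic density split the 2 pairs. In pair 2, 24 were above 0, and in pair 1, 9. Above 0 in both pairs were 9, beside 26.9% of all genes, and below 0 in both 5, beside 27.6%. The list's median was −0.19 in pair 1 and 0.64 in pair 2. At least 1.5-fold higher in both pairs was 1 of the 29 members, Camk2a, beside 2.36% of all genes.

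Camk2a codes for the alpha subunit of the calcium/calmodulin-dependent kinase of synapses (ENSMUSG00000024617, chr18:60925618-60988152). It read 734 CPM in the soma and 1190 CPM in neurites of insert 1, and 1380 and 4490 CPM in insert 2. Each neurite library was above its soma, while the neurites of insert 1 were below the soma of insert 2. The ratios were 0.69 and 1.70 and the fit 1.20 ± 0.34 (edgeR unadjusted p = 0.00752, adjusted p = 0.69).

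Ddn, the postsynaptic protein dendrin, read 14.6 and 15.7 CPM in insert 1 and 36.8 and 80.0 CPM in insert 2 (0.11 and 1.12). Map2, the microtubule protein of dendrites, read 291 and 261 CPM, and 379 and 657 CPM (−0.15 and 0.79). Shank1, a postsynaptic scaffold, read 17.1 and 16.0 CPM, and 41.5 and 98.0 CPM (−0.09 and 1.24). All 3 were thus near equal between the compartments of insert 1 and higher in the neurites of insert 2. Actb, beta actin, was near 0 in both pairs (0.10 and 0.06), with 4930 and 5280 CPM in insert 1 and 3590 and 3740 CPM in insert 2.

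Other members above 0 in both pairs were Psd (0.29 and 1.21), an exchange factor for ARF6 in spines, Shank3 (0.46 and 1.30), Ppp1r9b (0.23 and 1.19), which codes for spinophilin, Dlgap3 (0.15 and 1.07), Homer2 (0.30 and 0.97), Homer3 (0.31 and 0.36) and Cyfip2 (0.20 and 0.12), a partner of FMRP. Psd, Shank3 and Ppp1r9b had an unadjusted p of 0.0236, 0.0234 and 0.0343 in edgeR. Baiap2 (−1.41 and −0.32) and Dlgap2 (−1.60 and −0.36) were below 0 in both pairs, with an unadjusted p of 0.0219 and 0.0154.

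For the dendritic genes that were above 0 in both pairs, the strongest site called in WT neurons is shown in the same way. The 4 with the highest editing are given, Camk2a not considered:
Cyfip2: agcctctcAACattgcctaca
Ddn: cagatttaAACggacaaaggg
Shank3: acgccactGACctcctgaagg
Psd: gagaactgAACacgagtgggg
The Cyfip2 (chr11:46224187-46224207, minus strand) and Shank3 (chr15:89503336-89503356, plus strand) sites lie in coding sequence, with an authors' mean C-to-U of 18.4% and 8.26%. The Ddn site lies in the 3′UTR (chr15:98804607-98804627, minus strand; 9.98%) and the Psd site in the 5′UTR (chr19:46326462-46326482, minus strand; 4.51%).

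The 25 genes of synaptic vesicles mostly changed sides between the pairs. In 16 the ratio was below 0 in pair 1 and above 0 in pair 2, with list medians of −0.85 and 0.19. Below 0 in both were 7, beside 27.6% of all genes, and above 0 in both 2, beside 26.9%. By these shares, opposite signs in the 2 pairs were also common among all genes. Snap25, a SNARE of vesicle fusion, read 278 and 120 CPM in insert 1 and 1010 and 1070 CPM in insert 2. Sv2a (−0.69 and −0.57), Syt1 (−0.86 and −0.37) and Syp (−1.45 and −0.15) were below 0 in both, and Rims1 (0.24 and 1.55), an active zone scaffold, above 0 in both. Of the 21 tubulin, neurofilament and microtubule genes 13 were below 0 in pair 1 and above 0 in pair 2 (medians −0.47 and 0.52). In both pairs 6 were above 0 and 1 below 0, beside 26.9% and 27.6% of all genes. Tuba1a was above 0 in both (3340 and 4270 CPM in insert 1, 2710 and 3860 CPM in insert 2, ratios 0.36 and 0.51), and Nefm, the medium neurofilament, below 0 in both (−1.82 and −0.62). The 10 neuron markers behaved alike, with 7 below 0 in pair 1 and above 0 in pair 2, and medians of −0.91 and 0.35. In both pairs 0 were above 0 and 3 below 0, beside the same shares.

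The ionotropic glutamate receptors were more often below 0 than above it. Of 15 members 7 were below 0 in both pairs, beside 27.6% of all genes, and 1 above 0 in both, with medians of −0.52 and −0.20. Grin1, the obligatory NMDA receptor subunit, read 128 and 30.5 CPM in insert 1 and 276 and 186 CPM in insert 2 (−2.07 and −0.57). Gria1, an AMPA receptor subunit, read 280 and 135 CPM, and 802 and 671 CPM (−1.05 and −0.26), while Gria2 had ratios of −0.03 and 0.54. Grik1, a kainate receptor subunit, was the 1 member at least 1.5-fold lower in both (−0.70 and −0.83), beside 4.82% of all genes. Of the 12 GABA-A receptor subunits 4 were below 0 and 3 above 0 in both pairs, beside 27.6% and 26.9% of all genes. Their medians were −0.19 and 0.13.

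Neuropeptides and secretory granule genes of interneurons were below 0 in both pairs for 9 of 15 members, beside 27.6% of all genes. The list's medians were −0.71 and −0.18. Sst, somatostatin, read 24.6 and 5.83 CPM in insert 1 and 36.9 and 25.6 CPM in insert 2 (−2.08 and −0.53). Chga, a granule protein, read 153 and 60.9 CPM, and 598 and 400 CPM (−1.33 and −0.58). Cpe, the peptide-processing carboxypeptidase that glia also express, was above 0 in both (0.83 and 0.10), with 1300 and 2320 CPM in insert 1 and 1330 and 1430 CPM in insert 2.

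**Figure D4:**
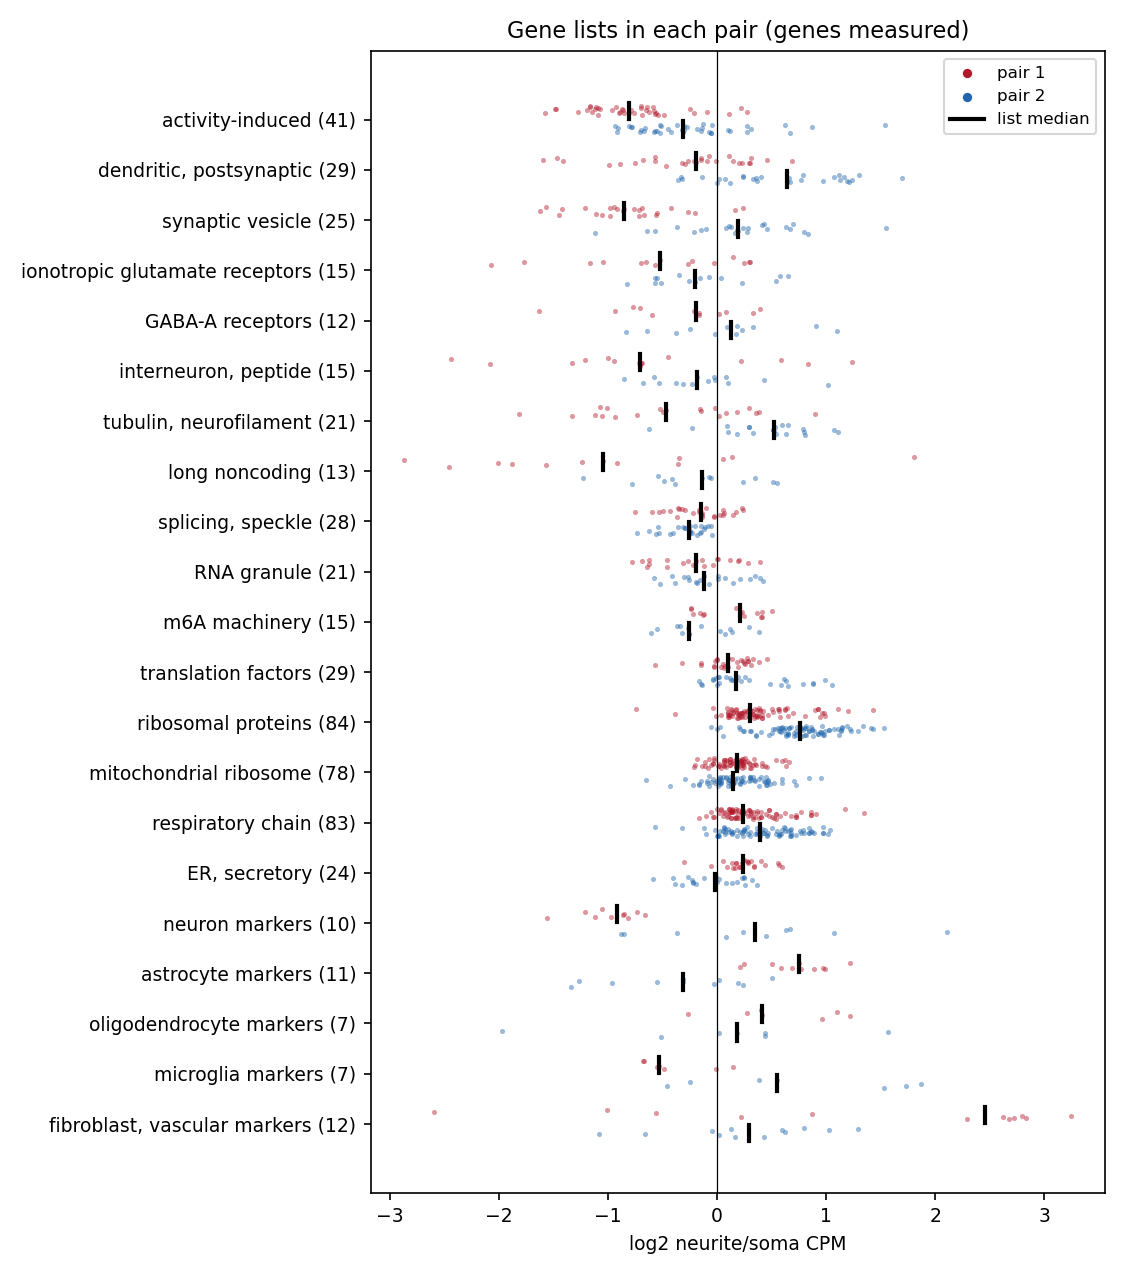
Neurite to soma log2 ratio of each member (points) and median (black bar) of 21 gene lists in pair 1 (red) and pair 2 (blue) of the KCl-treated Mettl3 KO inserts. By their medians, ribosomal (0.30 and 0.77) and respiratory chain genes (0.24 and 0.39) are above 0 and activity-induced genes (−0.81 and −0.31) below 0 in both pairs, while dendritic, vesicle and neuron marker lists change sides.

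Genes of the cytosolic ribosome were above 0 in both pairs more often than those of the other lists described here. Of 84 members measured 80 were above 0 in both pairs, beside 26.9% of all genes, and 1 was below 0 in both. The medians were 0.30 and 0.77. At least 1.5-fold higher in both were 16, beside 2.36% of all genes. At an unadjusted p in edgeR 37 were higher, beside 2.74% of all genes. None passed at an adjusted p in edgeR with the filter on low counts, and without it Rps29 was among the genes called. Rps29 (ENSMUSG00000034892, chr12:69157722-69159186) read 39.3 CPM in the soma and 106 CPM in neurites of insert 1, and 44.7 and 88.2 CPM in insert 2. Rpl37 (ENSMUSG00000041841, chr15:5116645-5119140) read 63.0 and 124 CPM, and 72.0 and 141 CPM. Both neurite libraries of these 2 genes were above both soma libraries, with ratios of 1.43 and 0.98 for Rps29 and of 0.98 and 0.97 for Rpl37, and fits of 1.20 ± 0.23 and 0.98 ± 0.21 (edgeR adjusted p = 0.69 for both).

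Other members at least 1.5-fold higher in both pairs included Rpl36 (0.93 and 0.93), Rpl37a (0.96 and 1.03), Rps21 (0.99 and 0.81), Rps28 (1.20 and 0.71) and Rpl39 (0.94 and 0.73). Rpl4 read 621 and 708 CPM in insert 1 and 678 and 1200 CPM in insert 2 (0.19 and 0.82). Read counts of ribosomal protein genes are uncertain, since reads that map to several places were counted and these genes have many processed copies in the genome. Of 216 pseudogenes named for a ribosomal protein gene 44 were at least 1.5-fold higher in both pairs and 3 lower in both, beside 2.36% and 4.82% of all genes and 253 and 81 of the 3509 pseudogenes tested.

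Nuclear genes of the respiratory chain were above 0 in both pairs for 72 of 83 members measured, beside 26.9% of all genes, and below 0 in both for 1, with medians of 0.24 and 0.39. At least 1.5-fold higher in both were 9, beside 2.36% of all genes. Uqcr11, a small subunit of complex III, read 158 and 287 CPM in insert 1 and 219 and 450 CPM in insert 2 (0.86 and 1.04). Atp5k, a small subunit of the ATP synthase, read 26.2 and 66.7 CPM, and 38.7 and 60.6 CPM (1.35 and 0.65). Atp5b, the catalytic beta subunit, was at 0.02 and 0.01, with 1060 and 1080 CPM and 1470 and 1480 CPM. The mitochondrially encoded genes, 37 in all, were listed at 0 in every library and could not be compared.

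Of the 78 mitochondrial ribosomal genes 54 were above 0 and 4 below 0 in both pairs, beside 26.9% and 27.6% of all genes. Their medians were 0.18 and 0.15. Of the 29 translation factor genes 15 were above 0 and 2 below 0 in both, beside the same shares (medians 0.10 and 0.17). Among those above 0 were Eif3f (0.38 and 1.05) and Pabpc4 (0.46 and 0.88), at an unadjusted p of 0.0189 and 0.0195 in edgeR. Eef1a1, the elongation factor that brings tRNA to the ribosome, read 1430 and 1690 CPM in insert 1 and 1410 and 2440 CPM in insert 2 (0.24 and 0.79).

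Long noncoding RNAs were below 0 in both pairs for 9 of 13 members measured, beside 27.6% of all genes, with medians of −1.05 and −0.14, and 7 were lower at an unadjusted p, beside 3.29% of all genes. Snhg11, which the annotation used here lists as protein-coding (chr2:158375638-158386145), read 320 CPM in the soma and 43.7 CPM in neurites of insert 1, and 538 and 230 CPM in insert 2. Both neurite libraries were below both soma libraries. The ratios were −2.87 and −1.23 and the fit −2.05 ± 0.39 (edgeR adjusted p = 0.69, DESeq2 adjusted p = 0.000372).

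Meg3, an imprinted RNA usually regarded as nuclear, read 2270 and 412 CPM in insert 1 and 2050 and 1540 CPM in insert 2 (−2.46 and −0.41). Malat1, an RNA of nuclear speckles, read 9760 and 7670 CPM, and 6140 and 4690 CPM (−0.35 and −0.39). The nuclear RNA Neat1 (−0.92 and −0.78) and the imprinted antisense RNA Kcnq1ot1 (−1.24 and −0.54) were also below 0 in both, at an unadjusted p of 0.0218 and 0.00685.

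Bc1, a small RNA of dendrites, was above 0 in both (0.305 and 1.10 CPM in insert 1, 1.44 and 2.05 CPM in insert 2), at low levels. The highest DART-seq site of Snhg11 (chr2:158385201-158385221, plus strand, 3′UTR) had an authors' mean C-to-U of 10.5% and is given with the same marks:
Snhg11: aacctaacAACtaatcaatgg

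The 28 genes of splicing factors and nuclear speckles were all below 0 in pair 2. Their median was −0.15 in pair 1 and −0.26 in pair 2. In both pairs 20 were below 0, beside 27.6% of all genes. Tra2a read 137 and 90.9 CPM in insert 1 and 123 and 79.7 CPM in insert 2 (−0.60 and −0.62). Ccnl1, a cyclin of speckles, read 125 and 86.8 CPM, and 246 and 149 CPM (−0.53 and −0.73). Ddx5, an RNA helicase, had ratios of 0.05 and −0.56.

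The 15 genes of the m6A machinery did not move together, with medians of 0.21 and −0.26. In both pairs 5 were above 0 and 5 below 0, beside 26.9% and 27.6% of all genes. Mettl3 had 9.33 and 7.93 CPM in insert 1 and 6.48 and 4.24 CPM in insert 2 when scaled on the 4 libraries (−0.24 and −0.61). Mettl14, its partner in the writer complex, read 25.5 and 36.1 CPM, and 13.6 and 10.9 CPM (0.50 and −0.32). The reader Ythdf2 (0.41 and 0.14) and the demethylase Fto (0.21 and 0.07) were above 0 in both, and Ythdc1 (−0.22 and −0.26), the nuclear reader, and Alkbh5 (−0.12 and −0.37), a demethylase, below 0 in both. In both pairs 3 of the 21 RNA-granule and RNA-binding protein genes were above 0 and 8 below 0, beside 26.9% and 27.6% of all genes. Their medians were −0.19 and −0.12, and Hnrnpa2b1 was below 0 in both (−0.22 and −0.52). Of the 24 genes of ER and secretion 12 were above 0 in pair 1 and below 0 in pair 2 (medians 0.24 and −0.01). Above 0 in both were 10, beside 26.9% of all genes, and below 0 in both 2, beside 27.6%. Hspa5, the ER chaperone BiP, was at −0.30 and −0.19.

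Markers of other cells differed between the compartments in pair 1. All 11 astrocyte markers were above 0 in pair 1 and 4 in pair 2 (medians 0.75 and −0.31). Gfap, the astrocyte filament, read 6740 and 13200 CPM in insert 1 and 1190 and 1680 CPM in insert 2 (0.97 and 0.50), and Slc1a3, a glutamate transporter of astrocytes, 1220 and 2260 CPM, and 411 and 332 CPM (0.89 and −0.31). Mbp, of myelin, read 1550 and 3010 CPM, and 32.7 and 44.4 CPM (0.96 and 0.44). Of the 7 oligodendrocyte lineage markers 4 were above 0 in both pairs, beside 26.9% of all genes (medians 0.41 and 0.18).

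Of the collagens Col1a1 changed sides, and Col3a1 and Col1a2 (2.83 and 0.43) were above 0 in both pairs. Col1a1 read 42.8 and 282 CPM in insert 1 and 9.18 and 5.81 CPM in insert 2 (2.72 and −0.66), and Col3a1 17.3 and 121 CPM, and 4.46 and 6.89 CPM (2.80 and 0.62). The 12 fibroblast and vascular markers had medians of 2.45 in pair 1 and 0.29 in pair 2. Of them 9 were above 0 in each pair and 6 in both, beside 26.9% of all genes. The 3 below 0 in pair 1 were Cldn5 (−2.60 and 0.02), Pecam1 (−1.01 and 0.16) and Flt1 (−0.56 and 0.13). Microglial markers had medians of −0.53 and 0.55 over 7 genes. C1qa, a complement component of microglia, read 104 and 74.0 CPM in insert 1 and 3.89 and 13.0 CPM in insert 2 (−0.49 and 1.73).

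The largest values of each pair alone are given for protein-coding and long noncoding genes whose mean count reached 100, named after their values were seen. The 8 largest ratios of pair 1 were those of Srpx2, Dcn, Itih2, Slc6a13, Col1a2, Col3a1, Lama1 and Postn, among them genes of matrix and meninges. Slc6a13, a GABA and taurine transporter of the meninges, read 3.89 and 31.8 CPM in insert 1 and 0.0687 and 0 CPM in insert 2. The 8 largest of pair 2 were Arl11, Ifi207, Galnt6, Pf4, Clec4n, Ms4a4a, Ccl6 and Cd209f, several of them genes of macrophages. Most of these ratios rest on few reads. Counts in soma and neurites of insert 2 were 1 and 15 for Arl11 and 3 and 17 for Pf4. In insert 1 these 2 genes had 278 and 166, and 1441 and 1131, and reached the mean count through insert 1. Cd209f had 211 and 829 in insert 2. Pf4, a chemokine, read 20.9 and 18.8 CPM in insert 1 and 0.0687 and 0.591 CPM in insert 2.

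Among the same genes, the 8 lowest of pair 2 included the genes of ciliated cells Stoml3 (2.62 and 1.70 CPM in insert 1, 3.68 and 0.104 CPM in insert 2) and Tmem212 (20.1 and 14.2 CPM, and 14.9 and 0.939 CPM). A list of 8 ciliated-cell genes written after this was seen, led by the regulator Foxj1 (148 and 231 CPM, and 50.9 and 17.5 CPM), summed to 255.2 and 345.8 CPM in insert 1 and to 113.8 and 27.3 CPM in insert 2. All 8 were below 0 in pair 2, with a median of −2.72, against −0.15 in pair 1. In insert 1 the members went both ways, with 3 above 0 and 5 below 0.

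The genes with the same direction in both pairs differed in kind. Of the 546 genes at least 1.5-fold higher in both, 253 were pseudogenes (46.34%) and 228 protein-coding (41.76%), against 15.16% and 68.40% of the 23152 genes. Of the 1117 lower in both, 81 were pseudogenes (7.252%), 300 long noncoding RNAs and 424 protein-coding. The protein-coding genes higher in both had a median 3′UTR of 616 bases and a median exon length of 2494 bases, against 1288 and 4310 bases over all protein-coding genes. For those lower in both the medians were 1053 and 3552 bases.

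Levels differed between these classes too. The median mean count was 266.9 for the protein-coding genes higher in both, 57 for those lower in both and 861.8 for all. For mean counts of 100 or more the median 3′UTR was 564 bases for the 148 protein-coding genes higher in both, 1447 bases for the 167 lower in both and 1424 bases for all. A DART-seq site, as listed by the authors, was held by 39 of the 228 (17.11%) and by 70 of the 424 (16.51%), against 34.55% of all protein-coding genes. For mean counts of 100 or more the shares were 25.68%, 38.92% and 41.88%. The classes differed in level as given above, and the part of level in these shares was not tested.

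The next question was whether neurite enrichment in KCl-treated Mettl3 KO neurons differed from that in untreated ones, tested as the difference of the 2 neurite to soma changes over 8 libraries. The edgeR quasi-likelihood test called 0 of 23099 genes in either direction (0% each) at a Benjamini-Hochberg adjusted p, 55 higher (0.238%) and 460 lower (1.99%) at an unadjusted p with 1.5-fold. DESeq2 called 1 gene in each direction. Control and KCl cultures came from the same litters. The labels do not say which control insert shares a litter with which KCl insert, and the test did not pair them. The untreated insert 2 also stood apart: the ribosomal list had medians of 1.21 and 3.45 in the untreated KO inserts and of 0.36 and 0.72 here, and the respiratory chain 0.83 and 3.12 against 0.30 and 0.34. Without untreated insert 2 the unadjusted counts were 1003 higher and 1434 lower, without KCl-treated insert 1 they were 194 and 489 and without KCl-treated insert 2 613 and 1137, with 0 genes at an adjusted p in each.

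The genes with the smallest p of this difference did not pass. Vtn, vitronectin, a matrix protein, had the smallest p among the higher ones, 3.98 ± 0.84 (edgeR unadjusted p = 0.00192, adjusted p = 1). It read 2.21 and 14.1 CPM in the soma and neurites of KCl insert 1 and 0.433 and 0.714 CPM in KCl insert 2, against 1.70 and 0.409 CPM and 2.06 and 0.435 CPM in the untreated inserts. Bgn (2.40 ± 0.58) was also among the 3 smallest, and Man2a1, a mannosidase of the Golgi (1.72 ± 0.61), was the other. Among the lower ones were the noncoding Mir670hg (−2.81 ± 0.64) and the pseudogenes Gm6977 (−2.29 ± 0.50) and Rps12-ps7 (−9.05 ± 1.18). Rps12-ps7 had 0.0169 and 0 CPM in the KCl neurites, so its fitted value depends on the prior count.

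The activity list had medians of −0.75 and −0.35 in the KCl-treated KO inserts and of 0.23 and −0.23 in the untreated ones, with a median difference of −0.60 over its members. Fos was at −1.03 and −0.60 with KCl and at 0.27 and −0.13 without (difference −0.87 ± 0.45, edgeR adjusted p = 1). Bdnf was at −0.15 and 0.62 with KCl and at 0.63 and 0.10 without. The dendritic list was at −0.14 and 0.60 with KCl and at 0.74 and 0.24 without. No member of any list passed in edgeR with the filter on low counts.

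The last question was whether neurite enrichment under KCl differed between Mettl3 KO and WT. Over 8 libraries the edgeR quasi-likelihood test called 0 of 23353 genes (0% each direction) at a Benjamini-Hochberg adjusted p, with 241 higher in KO (1.03%) and 631 lower (2.7%) at an unadjusted p with 1.5-fold. DESeq2 called 0 higher and 3 lower. Without KO insert 1 the unadjusted counts were 104 higher and 188 lower, and without KO insert 2 they were 520 and 791, with 0 genes at an adjusted p in either. The smallest p among the higher ones was that of Rasgef1b, an exchange factor of Ras-like proteins, which read 40.0 and 61.2 CPM in KO insert 1 and 26.7 and 46.4 CPM in KO insert 2, against 36.8 and 23.5 CPM and 36.7 and 26.5 CPM in WT. It was higher in the neurites of both KO inserts and lower in those of both WT inserts, with a difference of 1.26 ± 0.27 (edgeR adjusted p = 0.999, unadjusted p = 0.000721).

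Slc16a1, a lactate transporter, read 100 and 128 CPM and 90.1 and 87.8 CPM in KO, against 184 and 85.8 CPM and 196 and 111 CPM in WT (difference 1.12 ± 0.28). Spp1, osteopontin, read 18.9 and 24.2 CPM and 3.27 and 5.29 CPM in KO and 10.9 and 46.3 CPM and 4.64 and 23.0 CPM in WT (difference −1.69 ± 0.31). Ucma, a secreted matrix protein (1.81 ± 0.39), and the noncoding Gm49192 (−2.64 ± 0.42, adjusted p = 0.99 in edgeR) and Gm15601 (−2.56 ± 0.47) were the others. None passed.

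In WT the dendritic list had medians of 1.03 and 0.69, against −0.14 and 0.60 in KO, with a median difference of −0.75. Pair 2 of the KO (0.60) was thus close to the lower of the WT inserts (0.69), and pair 1 was the one that lay apart. Camk2a was at 1.86 and 1.64 in WT and at 0.75 and 1.65 in KO (difference −0.56 ± 0.39, edgeR adjusted p = 0.999). Ddn was at 2.04 and 1.72 in WT and at 0.16 and 1.07 in KO (−1.27 ± 0.35, edgeR adjusted p = 0.999, unadjusted p = 0.00443), Shank1 at 2.43 and 1.49 and at −0.03 and 1.19 (−1.40 ± 0.45), and Map2 at 1.45 and 1.21 and at −0.10 and 0.75 (−1.02 ± 0.36). For Ddn, Shank1 and Map2 both KO inserts were below both WT inserts, and insert 1 was the lower of the 2 KO inserts. For Camk2a insert 2 of the KO lay between the WT inserts.

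The ribosomal list (0.36 and 0.72 in KO, 0.34 and 0.67 in WT) and the respiratory chain (0.30 and 0.34 in KO, 0.24 and 0.48 in WT) had like medians in both genotypes, with median differences of 0.02 each. The activity list was at −0.75 and −0.35 in KO and at −0.36 and −0.37 in WT (median difference −0.13). The ER list was at 0.30 and −0.06 in KO and at −0.37 and −0.28 in WT (median difference 0.39). No gene of any list passed in this comparison in edgeR with the filter on low counts.

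**Figure D5:**
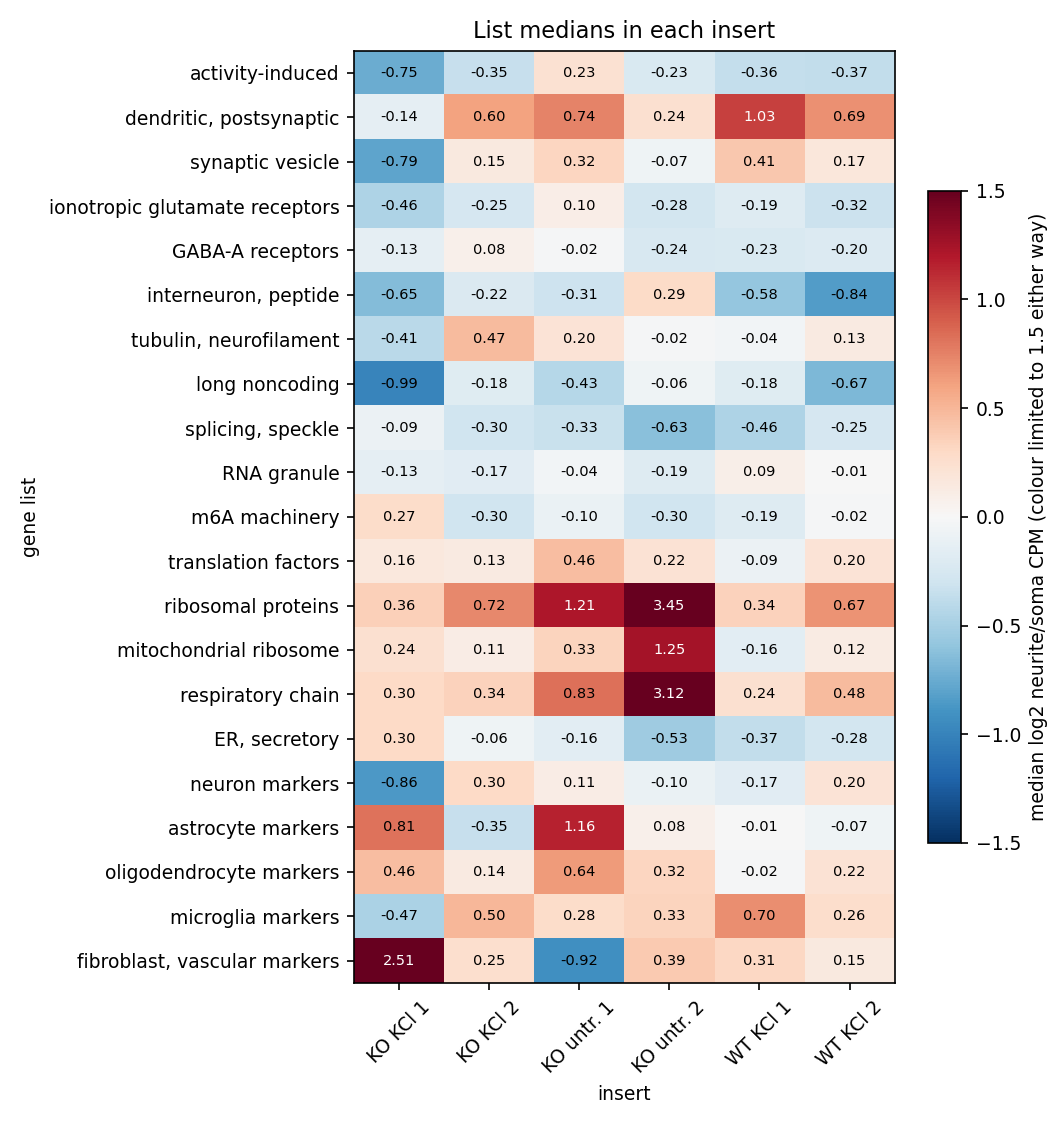
Median neurite to soma log2 ratio of 21 gene lists, printed and coloured (red above 0, blue below 0), in each insert of KCl-treated Mettl3 KO, untreated Mettl3 KO and KCl-treated WT, on the scale of 16 libraries. Dendritic genes are at −0.14 in insert 1 of the KCl-treated KO and at 0.24 to 1.03 in the other 5 inserts, and ribosomal genes reach 3.45 in untreated KO insert 2.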

How the data were processed

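The deposited table holds counts, the number of fragments the authors assigned with featureCounts 2.0.1 to the exons of each gene after STAR 2.7.7a alignment to mm10 (submitters' notes). They are whole numbers without normalization, and per the file headers reads that map to several places were counted. The deposited DART-seq value is a C-to-U fraction, the authors' mean over libraries that the file does not name, printed here in percent. The authors' own comparison tables, which hold fold changes and p-values, were not used.

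Symbols, biotypes, places and sequence came from GENCODE M21 (GRCm38.p6), which named 55480 of 55573 genes; 5566 of 5643 names with a DART-seq site matched. Genes whose mean count was under 10 in a comparison were dropped, as were all mitochondrially encoded ones. R 4.3.3 with edgeR 4.0.16 (TMM scaling, two-sided quasi-likelihood test, Benjamini-Hochberg) fitted compartment with 1 term per insert; DESeq2 1.42.0 was the alternative. Pair ratios used log2 CPM with a prior count of 0.5 and have no test. The pairing comes from the methods, which isolate both fractions from 1 insert, and the insert differences of soma and neurites correlated at 0.81. Nothing else in the labels describes the replicates. With 1 term per insert, differences in level between inserts are taken out. The p-values therefore measure how far the neurite to soma changes of the 2 inserts of a group differ, with this spread shared over genes.

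The members and lists were chosen with earlier results of these data known. The genes named are Mettl3 and 15 others always given where measured, the 2 members of each list with the highest mean CPM, the 3 smallest p of each difference in each direction, and genes chosen after their values were seen: since none was called, those with the largest change in both pairs, in 1 pair or with the smallest p among protein-coding and long noncoding genes whose mean count reached 100, genes that DESeq2 called, and list members with a low unadjusted p or with the same direction in both pairs. Some genes that this rule names are not reported here. Alternatives were DESeq2, RLE scaling, TMM on protein-coding genes, other filters, the fit without the insert term, the 8 Mettl3 KO or all 16 libraries, and each insert left out. Python 3.11.15, pandas 2.3.3 and matplotlib 3.10.9 did the rest.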

Additional observations from a re-analysis of the deposited data

How the results depend on the processing

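The calls rest on the tool and the filter, and the cause was not tested. Neurite against soma, DESeq2 called 5 genes higher and 16 lower, edgeR without a filter on low counts 101 and 119, and an unadjusted p 634 and 761, against 0 and 0. For the difference from untreated Mettl3 KO these were 1 and 1, 1 and 29, and 55 and 460, and for the difference from KCl-treated WT 0 and 3, 9 and 63, and 241 and 631. Neurite against soma, the 101 genes included Camk2a and Rps29, and the 119 included Fos, Npas4 and Meg3. Genes at least 1.5-fold in both pairs numbered 1511 higher and 3875 lower, with 1981 and 2095 opposite, without a filter, and 200 and 285, with 170 and 179 opposite, at a mean count of at least 100 with TMM taken on those genes. On the scale of all tested genes the latter were 301 and 238, with 222 and 144 opposite, so the side with more genes depends on the scaling there. RLE, protein-coding TMM and a prior count of 5 kept each of the 4 pair counts within 1.5 times. The settings for the pair counts, and the fit without untreated Mettl3 KO insert 2, were chosen after seeing the data.

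Without the replicate block (the insert term) edgeR called 0 and 0 genes, 63 higher and 57 lower at an unadjusted p (22 and 39, and 40 and 70, for the differences from untreated KO and from WT), and the common coefficient of variation was 0.585 against 0.242. The block changed no call of the 3 comparisons. Signs that turned without it were Tubb3 (0.32), C1qb and C1qa (−0.31 each) and Elavl3 (0.06).

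Other turns of sign were near 0. Canx and Calb2 were at −0.02 at a mean count of at least 100 and with the 8 Mettl3 KO libraries, and Atp5b at −0.01 (DESeq2, RLE, no filter) and −0.04 (mean count of at least 100, 8 Mettl3 KO libraries). With either insert left out the fitted log2 change ran from −1.14 to 0.06 (Snap25), −1.05 to 0.60 (Tubb3), −0.33 to 0.96 (Slc1a3), −0.46 to 1.85 (C1qb), −0.42 to 1.71 (C1qa), −0.68 to 2.79 (Col1a1), −0.58 to 0.12 (Ddx5), −0.29 to 0.41 (Canx), −0.13 to 0.68 (Cplx2), −0.03 to 0.29 (Eif4a1), −0.88 to 1.00 (Calb2), −0.55 to 0.36 (Elavl3), −0.01 to 0.09 (Atp5b), −0.08 to 0.77 (Map2), −0.02 to 1.21 (Shank1), −0.13 to 0.65 (Bdnf) and −1.40 to 0.05 (Homer1). Of 839 values of named genes under the alternatives 760 kept their sign and side of the threshold.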
